A study of Rattus norvegicus with 96 samples.

Results

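The genes described are the collagen and laminin chains of the rat genome that the array measured in the central nucleus of the amygdala, a forebrain nucleus with roles in fear and in the response to stress. Members were all probe sets annotated to 1 gene symbol that reads Col, a digit, then a and a digit, or Lama, Lamb or Lamc and a digit. The rule uses names and no measured value. It found 72 probe sets of 31042, for 51 genes of 14217: 41 collagen genes with 58 probe sets and 10 laminin genes with 14 probe sets. A probe set is a group of short probes that together report 1 transcript region. 34 genes had 1 probe set, 13 had 2 and 4 had 3.

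The 96 arrays came from rats of 5 pairs of lines, each pair bred in opposite directions for alcohol preference, with the preferring line named first: HAD1 (n = 9) with LAD1 (n = 10), HAD2 with LAD2 (n = 10 each), P with NP (n = 10 each), AA with ANA (n = 10 each), and sP (n = 8) with sNP (n = 9). Neither sex, age nor exposure to alcohol is in the labels used here. Each title names 1 animal. Rats within a line are related, and the p-values measure the spread between animals of these lines and nothing wider. The question put to the matrix genes was which of them separate a preferring line from its non-preferring partner, and in how many pairs. The source name of array LAD1 36 reads HAD1, against its title and its preference label, and the array was kept as LAD1.

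Collagens are trimers of alpha chains wound into a triple helix. Types I and III form fibrils made by fibroblasts, and in brain these lie mainly in the meninges and around larger vessels. Type IV collagen and the laminins, trimers of 1 alpha, 1 beta and 1 gamma chain, build the basement membrane under the vessel wall and the brain surface. Fibril-associated collagens such as types IX, XII and XIV sit on the surface of fibrils, and some collagens, among them type XXV, span the membrane of neurons.

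Array medians lay between 7.77 and 8.02 on the deposited log2 scale. RNA quality was read from GAPDH, as the log2 ratio of its 3′ over its 5′ control probe sets. It had line means of 3.33 to 4.09 in the HAD and LAD lines and of 0.20 to 0.43 in the other 6 lines, so levels were compared only within pairs. By their values at probe sets other than members, 15 arrays lay nearer the other line of their pair in 2 separate scores, and are called doubted: 2 in the HAD1 pair, 0 in the HAD2 pair, 4 in the P pair, 5 in the AA pair and 4 in the sP pair. Leaving out arrays that lie nearer the partner line tends to widen the gap between lines. Calls gained in fits without them are therefore no separate support. LAD1 36 was not doubted, and its 2 scores, -0.73 and -0.96, lay on the LAD1 side. Arrays sP 2 and sNP 2 were nearly identical, with an SD of their difference of 0.09 against 0.17 for the next closest arrays. Central amygdala neuron markers were present in every line, with the mean of 12 measured markers between 9.16 and 11.74. In tissue RNA, fewer cells of a type and less RNA per cell cannot be told apart.

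Array P 5 stood apart in the P line. Choroid plexus is the tissue that makes cerebrospinal fluid. Its marker Ttr, which carries thyroid hormone, read 15.05 in P 5 and 6.10 to 8.85 in the 9 other P arrays. Kl read 9.76 against at most 5.12, and Folr1 12.58 against at most 6.20, while Otx2 at 6.23 and Kcnj13 at 6.70 were within the range of the other P arrays. Over the 8 measured choroid plexus markers the mean was 11.04 in P 5 and had a median of 7.31 over the P line. Member genes moved with it: Col8a2, a short-chain collagen of sheet-like matrix, read 11.76 against 5.33 to 5.89, and Col8a1, its partner chain, 11.15 against 6.09 to 8.60. Lama2, the alpha chain of the laminin of muscle and meninges, read 11.40 in P 5 and 7.43 to 8.69 in the other P arrays. Lama3 read 8.36 against 6.30 to 6.83 and Lama5 9.10 against 6.89 to 7.53. Col4a1 at 7.98 and Col4a2 at 8.84 lay inside the range of the other P arrays. P 5 was the highest array of its line for 15 of the 51 member genes. The main results that rest on it are given with and without it, and medians over a kind of chain include it.

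Most members were dim: 20 of 72 probe sets had a mean above the median of all probe sets, 20 were in the lowest 25% and 3 in the highest 25%. Background and a low transcript cannot be told apart here, since no detection calls were used. For the 17 genes with several probe sets, the probe sets of 1 gene correlated across arrays with a median r of 0.31 over 25 pairs, from -0.15 for Lamc1 to 0.81 for Col1a2.

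**Figure D1:**
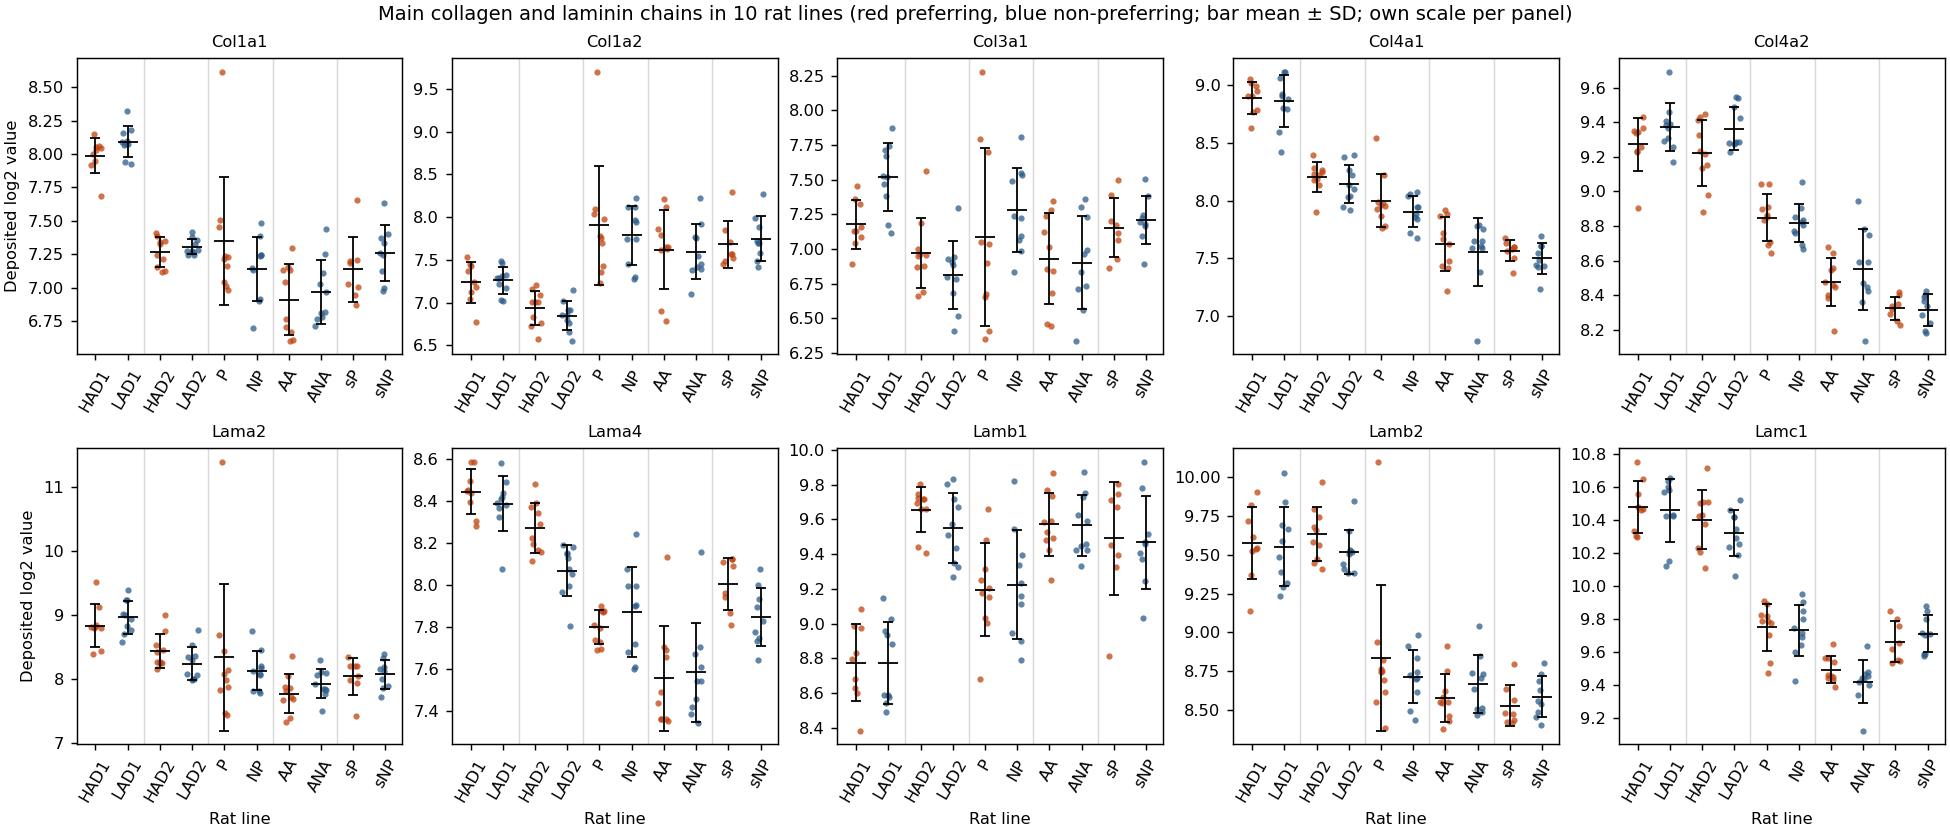
Deposited log2 value of 5 collagen and 5 laminin chains on each of 96 arrays, by rat line; points are arrays (red preferring, blue non-preferring), bars are mean ± SD, and each panel has its own scale. P 5 is the single high point of the P line for Col1a1, Col1a2, Lama2 and Lamb2, and the lines of a pair overlap in every panel.

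Among the fibrillar chains, Col1a2, the alpha 2 chain of type I collagen, was lower in HAD1 than in LAD1 at 1 of its 2 probe sets. At probe set 1387854_at the lowest, median and highest values were 7.31, 7.70 and 7.80 in HAD1 and 7.68, 7.98 and 8.40 in LAD1. Most HAD1 arrays were below most LAD1 arrays, and the lines overlapped. The difference was -0.40 (SE 0.097, adjusted p = 0.0472 by limma). This was the 1 member of 72 called in that pair, where 0.963% of all probe sets were called. The other probe set of the gene, 1370155_at, gave -0.02 (SE 0.089), with 6.77 to 7.54 in HAD1 and 7.02 to 7.49 in LAD1. The call held in 4 of 19 fits that left out 1 array, those without HAD1 28, HAD1 30, LAD1 37 or LAD1 40, and it was lost when LAD1 36 was counted as HAD1 or left out. Without HAD1 28 and LAD1 37, both doubted, the difference was -0.46 (adjusted p = 0.0105).

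The other main fibrillar chains of the meninges had the same sign as the called Col1a2 probe set in the HAD1 pair. Col3a1, the single chain of type III collagen, ran from 6.89 to 7.46 in HAD1 (median 7.13) and from 7.12 to 7.87 in LAD1 (median 7.52), a difference of -0.34 (SE 0.094, adjusted p = 0.0916). Without the doubted arrays it passed, at -0.40 (adjusted p = 0.0227), as did 1 probe set of Col11a1, a minor chain of cartilage-type fibrils, at 0.27 (adjusted p = 0.0392). That fit called 3 of 72 members and 2.56% of all probe sets. Col1a1, the alpha 1 chain of type I, differed by -0.10 (SE 0.064, adjusted p = 0.584) at 1370864_at. It ran there from 7.69 to 8.15 in HAD1 and from 7.93 to 8.32 in LAD1. At 1388116_at Col1a1 differed by -0.06 (SE 0.061, adjusted p = 0.781 by limma).

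Most markers of leptomeningeal fibroblasts, of pericytes and smooth muscle, of microglia and of astrocytes were lower in HAD1 as well. The share of all probe sets called in this pair is given above. Over 19 measured leptomeningeal fibroblast markers the mean ran from 7.50 to 7.88 in HAD1 and from 7.63 to 8.03 in LAD1, and 7 of 19 were higher in HAD1. One of them passed the test, the growth factor Igf2 at -0.45 (adjusted p = 0.0480). Of 12 pericyte and smooth muscle markers 1 was higher in HAD1, and 2 passed as lower, Tagln at -0.50 and Myh11 at -0.46, both proteins of contractile cells. All 10 microglial markers were lower in HAD1, with 2 called, the chemokine receptor Cx3cr1 at -0.40 (adjusted p = 0.0348) and the complement chain C1qc at -0.48 (adjusted p = 0.0266). Their mean ran from 8.84 to 9.25 in HAD1 and from 9.07 to 9.50 in LAD1. Of 14 endothelial markers 6 were higher in HAD1, and the transporter Abcb1a was called as lower, at -0.67 (adjusted p = 0.0403). Of 10 astrocyte markers 1 was higher in HAD1, and of 12 central amygdala neuron markers 7, with 0 called in either list. The part of these cells in the Col1a2 difference was not tested.

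In the other pairs the chains of types I and III did not pass. At 1370864_at Col1a1 differed by -0.04 in the HAD2 pair, 0.21 in the P pair, -0.06 in the AA pair and -0.12 in the sP pair. P minus NP was 0.07 there without P 5, which read 8.62 against 6.98 to 7.50 in the other P arrays. The second Col1a1 probe set, 1388116_at, gave 0.04, 0.14, -0.00 and 0.01 in the same order, and -0.03 for P minus NP without P 5. Over these 4 pairs Col3a1 ran from -0.20 (P minus NP, SE 0.209) to 0.16 (HAD2 minus LAD2, SE 0.105). Without P 5 its P minus NP difference was -0.33 (SE 0.177). All 19 probe sets of the 11 fibrillar genes gave medians of -0.01, 0.09, 0.11, 0.06 and -0.02 in the HAD1, HAD2, P, AA and sP pairs, and 15 of 19 were higher in HAD2 than in LAD2 with 0 called.

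Col12a1 gave the clearest difference of any member. It encodes the chain of type XII collagen, which binds to type I fibrils. At probe set 1370927_at the lowest, median and highest values were 8.13, 8.31 and 8.54 in HAD2, and 7.17, 7.60 and 7.79 in LAD2. Every HAD2 array was above every LAD2 array. The difference was 0.78 (SE 0.080, adjusted p = 4.74e-07 by limma), a fold of 1.72. It was the 1 member of 72 called in this pair, against 4.09% of all probe sets called, and the 1 member whose lines did not overlap, against 0.86% of all. In the HAD1, P, AA and sP pairs 0 members had lines that did not overlap, against 0.0193%, 0%, 0% and 0.00966% of all. It was called in all 20 fits that left out 1 array, with differences of 0.74 to 0.81.

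The probe sets of Col12a1 did not act alike. The other two gave -0.06 (SE 0.056) at 1395580_at, with 5.79 to 6.19 in HAD2 and 5.90 to 6.31 in LAD2, and 0.03 (SE 0.041) at 1398321_a_at, with 5.25 to 5.56 and 5.23 to 5.47. Across the 96 arrays the called probe set correlated with them at r = -0.01 and 0.15. Both others were dim, with mean levels of 5.41 and 5.30 over all arrays, against 7.74 at the called probe set. At such levels background and a low transcript cannot be told apart, so their flat values do not decide about the transcript. Which transcripts the 3 probe sets report was not tested.

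The Col12a1 difference was not of the same size in each pair. At 1370927_at it was 0.13 (SE 0.080) for HAD1 minus LAD1, 0.03 (SE 0.121) for P minus NP, 0.11 (SE 0.126) for AA minus ANA and -0.15 (SE 0.164) for sP minus sNP, none past the test. HAD1 ran from 7.53 to 8.22 and LAD1 from 7.58 to 7.95, so those lines overlapped. The 5 differences were unequal by limma's F test (adjusted p = 0.000379), and the range from lowest to highest pair was 0.94. Col12a1 was the 1 member of 72 called in that test, against 4.54% of all probe sets. Without the doubted arrays 2 members were called there, Col12a1 and 1 probe set of Col11a1, against 10.5%.

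Pericyte and smooth muscle markers were also higher in HAD2 than in LAD2. Their mean ran from 7.64 to 8.08 in HAD2 and from 7.53 to 7.83 in LAD2, with overlap, 9 of 12 were higher, and 2 passed, the channel subunit Abcc9 at 0.76 (SE 0.106) and the pericyte gene Rgs5 at 0.42 (SE 0.097). Of the leptomeningeal markers 10 of 19 were higher in HAD2 with 0 called, and of the central amygdala neuron markers 1 of 12 with 0 called. Of 14 endothelial markers 7 were higher in HAD2, and 3 were called: Abcb1a at 0.66 (adjusted p = 0.00933), the receptor Tek at -0.28 (adjusted p = 0.0235) and Egfl7 at -0.23 (adjusted p = 0.0452). Of 10 microglial markers 2 were higher, with P2ry12 called at 0.64 (adjusted p = 4.62e-06) and Cx3cr1 at -0.30 (adjusted p = 0.0033). Of 10 astrocyte markers 8 were higher and Gjb6 was called at 0.28 (adjusted p = 0.0131). The part of these cells in the Col12a1 difference was not tested.

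In LAD2 4 arrays stood apart for a choroid plexus marker. Ttr read 11.52 to 12.25 in LAD2 12, 14, 15 and 16, against 8.08 to 8.76 in the other LAD2 arrays and 7.64 to 8.42 in HAD2. The difference for Ttr was -1.66 (SE 0.529, adjusted p = 0.0857), and 1 of 8 choroid plexus markers was higher in HAD2. At 1370927_at Col12a1 read 7.27 to 7.77 in those 4 arrays and 7.17 to 7.79 in the other LAD2 arrays. The lowest HAD2 array read 8.13. The part of choroid plexus tissue in the Col12a1 difference was not tested.

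The 10 protein-coding genes to each side of Col12a1 on rat chromosome 8 were read in the order of the GRCr8 assembly. Of these, 11 were measured and 2 were called in the HAD2 pair, against 4.09% of all probe sets. Both were lower in HAD2: Slc17a5, a lysosomal sialic acid carrier, at -0.29 (adjusted p = 0.000262 by limma) and Irak1bp1 at -0.26 (adjusted p = 0.0247 by limma). Whether the share among neighbours differs from that of all probe sets was not tested. In the HAD1 pair 0 of the 11 were called.

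**Figure D2:**
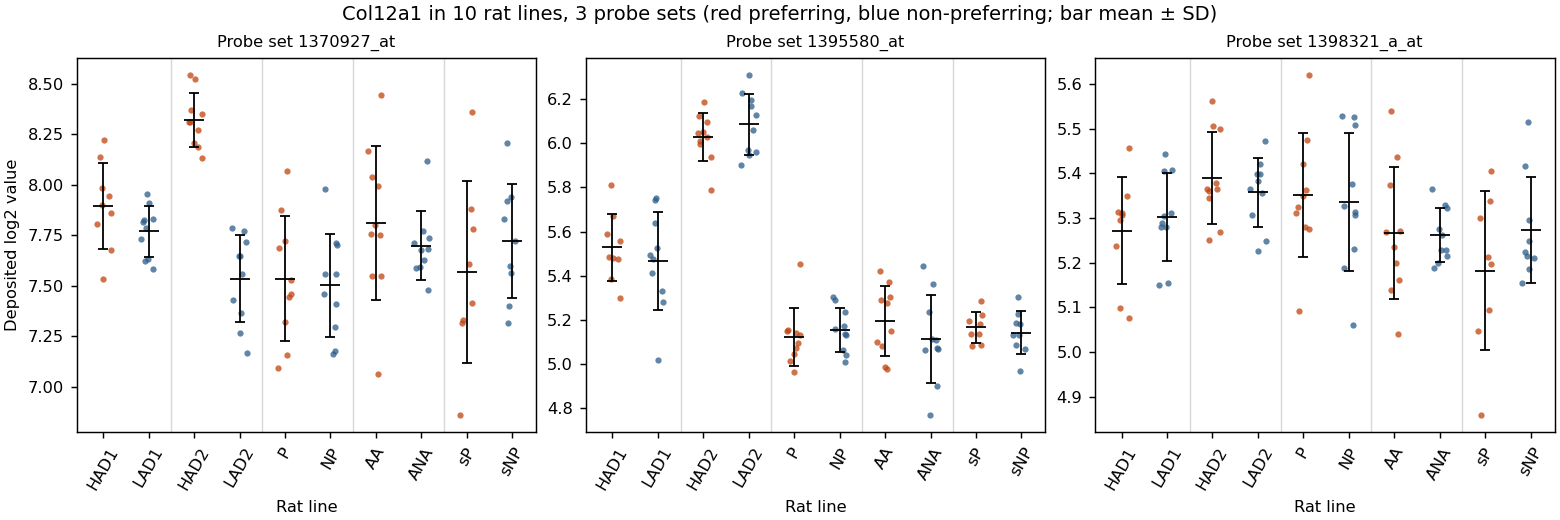
Deposited log2 value of the 3 Col12a1 probe sets on each of 96 arrays, by rat line (red preferring, blue non-preferring; bars mean ± SD; own scale per panel). The 10 HAD2 arrays lie between 8.13 and 8.54 at 1370927_at, above the 10 LAD2 arrays at 7.17 to 7.79, while the lines of that pair overlap at the other probe sets.

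Other fibril-associated chains were not called in any pair. Col9a3, a chain of type IX collagen, came nearest, at 0.48 in the HAD2 pair (SE 0.140, adjusted p = 0.0514) and -0.32 (SE 0.148) in the HAD1 pair. Col14a1, the chain of type XIV collagen, came nearest in the mean over the 5 pairs, with 0.20 (SE 0.058, adjusted p = 0.0775) at 1376105_at and 0.14 (SE 0.043, adjusted p = 0.0889) at 1376170_at; it is named after its values were seen. At 1376105_at HAD1 ran from 7.38 to 8.45 (median 8.32) and LAD1 from 6.47 to 8.15 (median 7.73), with overlap, a difference of 0.50 (SE 0.173, adjusted p = 0.218). In the sP pair the same probe set gave -0.00 (SE 0.091). At 1376170_at all 5 pairs were positive, from 0.05 to 0.24. The mean over pairs called 0 of 72 members, with 6 at an unadjusted p under 0.05, against 0.986% of all probe sets called. Without the doubted arrays it called 4 members, both Col14a1 probe sets, Col12a1 at 0.19 and the transmembrane chain Col13a1 at -0.14, against 2.9% of all. With array weights it called 3, Col12a1 and both Col14a1 probe sets, against 2.23%. With the 5 pair differences as the replicates 0 members and 0 of all probe sets passed.

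The basement membrane chains differed little within pairs. Col4a1 and Col4a2, the chains of the common type IV network, share a start region, as the sequence between them shows. Col4a1 gave 0.03, 0.06, 0.10, 0.07 and 0.07 in the HAD1, HAD2, P, AA and sP pairs (SE 0.061 to 0.115), at 1372439_at, with the same sign in 5 of 5 and 0 called. Its second probe set, 1373245_at, gave 0.05, -0.03, 0.02, -0.05 and 0.04, positive in 3 of 5. At 1372439_at Col4a1 ran from 7.9 to 8.39 in HAD2 and from 7.92 to 8.39 in LAD2. Col4a2 gave -0.10, -0.14, 0.03, -0.07 and 0.01, and ran from 8.88 to 9.45 in HAD2 and from 9.23 to 9.54 in LAD2. Over the 7 type IV probe sets every difference lay between -0.14 and 0.11.

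Laminin chains were not called in any pair. Lama4, the alpha chain of vessel laminin, came nearest, at 0.20 in the HAD2 pair (SE 0.060, adjusted p = 0.0573), with 8.12 to 8.48 (median 8.26) in HAD2 and 7.80 to 8.19 (median 8.10) in LAD2. It passed in some alternative fits, and its second probe set correlated with the first at r = -0.07. That second probe set, 1396066_at, gave 0.036 (SE 0.058) in the HAD2 pair and -0.055 (SE 0.089) in the sP pair. Lama4 also had the smallest p of any member in the sP pair, 0.16 (SE 0.066, unadjusted p = 0.0304, adjusted p = 1), followed by Lama3 at -0.13 (SE 0.059). Lama2 differed by 0.21 (SE 0.346) in the P pair and by -0.13 (SE 0.154) without P 5. Lamb1, a beta chain found in brain neurons as well as vessels, stayed between -0.03 and 0.11 over the 5 pairs. Lamb2, the beta chain of mature basement membranes and synapses, ran from -0.09 to 0.12. Lamc1, the common gamma chain, ran from -0.05 to 0.08 at 1371322_at. The second Lamc1 probe set, 1370993_at, ran from -0.10 to 0.12 and correlated with the first at r = -0.15. The 0.12 of Lamb2 was in the P pair, where it was -0.02 (SE 0.077) without P 5.

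With array weights 2 members were called in the HAD1 pair and 4 in the HAD2 pair, against 2.26% and 5.85% of all probe sets, and 6 for variation among pairs, against 12.8%. With all 10 lines in 1 fit they were 2 and 1, against 2.53% and 4.27%.

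In the P, AA and sP pairs 0 of 72 members were called by limma, as were 0 of all 31042 probe sets (a background of 0%), and 3, 2 and 2 members had an unadjusted p under 0.05. With array weights, and without the doubted arrays, members called stayed at 0 in these pairs, against 0.00966%, 0.667% and 0% of all probe sets with weights. With all 10 lines in 1 fit it was also 0, against 0.541%, 0.654% and 0.00644%. Without the doubted arrays the background was 1.62%, 1.8% and 1.75%. The members with the smallest p in the P pair were Col9a2, a type IX chain, at -0.20 (SE 0.083, adjusted p = 0.876) and Col22a1, a chain of tissue junctions, at 0.20 (SE 0.084) or 0.13 without P 5. Col9a2 ran from 8.22 to 8.74 in P and from 8.44 to 9.04 in NP. In the AA pair they were Col5a1, which sets the width of type I fibrils, at 0.21 (SE 0.089, adjusted p = 0.976) and Col11a1 at -0.59 (SE 0.257). Col11a1 at 1384211_at ran widely in both lines, from 5.11 to 6.78 in AA and from 5.61 to 7.62 in ANA. Col8a2 gave 0.70 for P minus NP with all arrays and 0.09 (SE 0.086) without P 5.

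**Figure D3:**
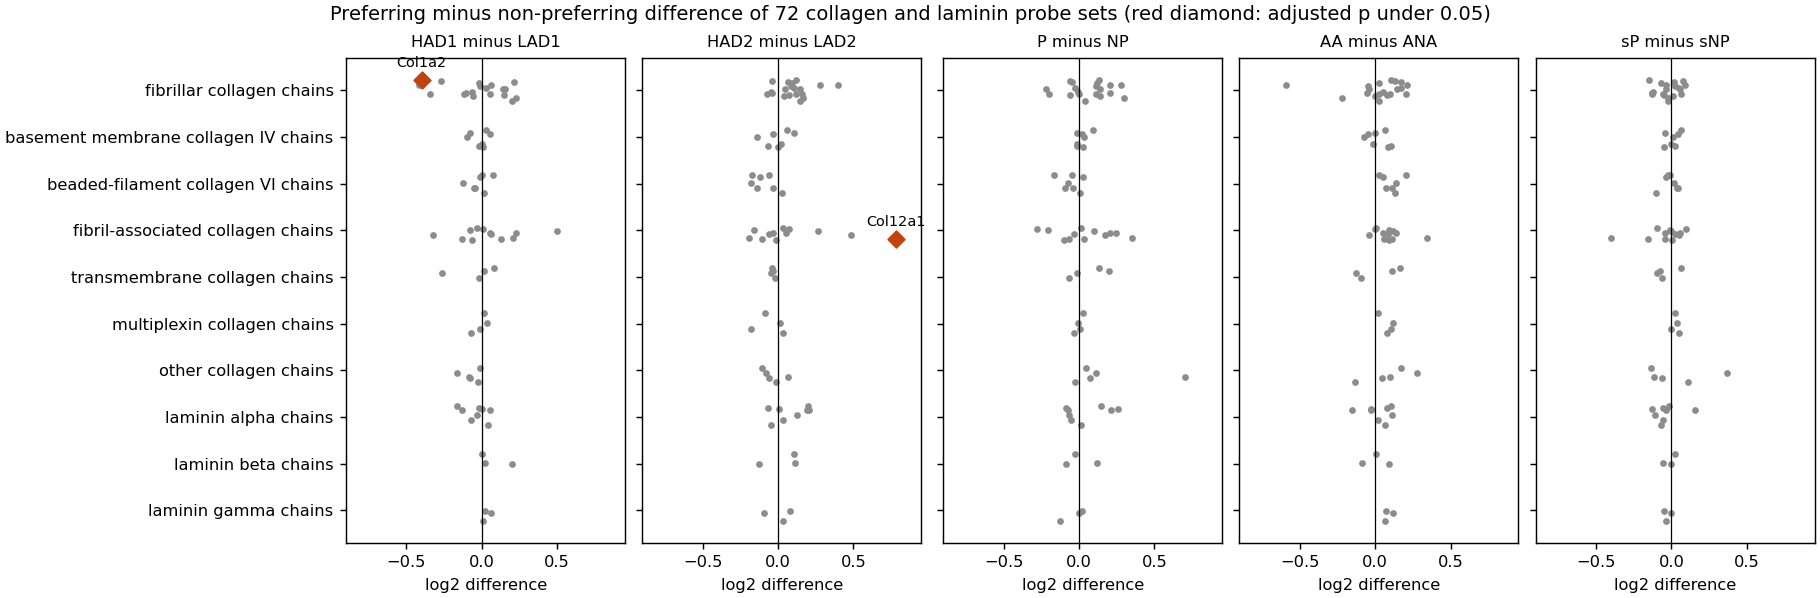
Preferring minus non-preferring log2 difference of the 72 member probe sets in each of the 5 line pairs, by kind of chain; red diamonds have an adjusted p under 0.05 by limma. Col1a2 at -0.40 in the HAD1 pair and Col12a1 at 0.78 in the HAD2 pair are the 2 calls, and the point at 0.70 in the P pair is Col8a2, which rests on array P 5.

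The members as a list had no common direction over the pairs. The median member difference was -0.01 for HAD1 minus LAD1, 0.02 for HAD2 minus LAD2, 0.01 for P minus NP, 0.07 for AA minus ANA and -0.02 for sP minus sNP, beside medians over all probe sets of -0.00, -0.01, -0.00, 0.01 and -0.01. Without P 5 the member median for P minus NP was -0.02, with 31 of 72 positive, against 38 with all arrays. In the AA pair 53 of 72 members were positive against 53.1% of all probe sets, and all 7 type VI collagen probe sets were, between 0.03 and 0.20, with 0 called. Without the doubted arrays 56 of 72 members were positive there. The same 7 type VI probe sets had a median of -0.12 in the HAD2 pair. 2 member probe sets were positive in all 5 pairs, 1 each at Col14a1 and Col4a1, and 2 in none, at Col13a1 and Col17a1, shares of 2.78% each against 2.39% and 2.82% of all probe sets.

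Genes that work with these chains were called in the HAD1 and HAD2 pairs, where 0.963% and 4.09% of all probe sets were. Of 13 measured basement membrane partners, 2 were called in the HAD2 pair: Fbln2, a fibulin that binds laminin, rose by 0.31 (adjusted p = 0.0264) and Fras1, a basement membrane adhesion protein, fell by 0.42 (adjusted p = 4.14e-07). Of 21 collagen processing enzymes 2 were called there, both higher in HAD2: Lox, which crosslinks collagen, at 0.32 (adjusted p = 0.0238) and P4ha1, a prolyl hydroxylase, at 0.30 (adjusted p = 0.0175). Of 16 matrix proteases and inhibitors 1 was called in a pair, the gelatinase Mmp2 at -0.46 in the HAD1 pair (adjusted p = 0.00902). Of 16 collagen and laminin receptors 0 were called in any of the 5 pairs. The test for variation among pairs called Fbln2, P4ha1 and the protease Mmp24 (adjusted p = 5.74e-05, 0.00766 and 0.00322). In the P, AA and sP pairs 0 genes of these 4 lists were called.

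Co-variation was read from the deviation of each array from its line mean, over 96 arrays, with label permutations within lines and Benjamini-Hochberg adjustment over 14 relations. The fibroblast chains rose and fell together. Col1a1 and Col1a2 correlated at r = 0.71 and rho = 0.52 (both adjusted p = 2.8e-05 by permutation), or r = 0.55 without P 5, with r from 0.16 to 0.88 within pairs. Col1a2 and Col3a1 gave r = 0.70 and rho = 0.62 (both adjusted p = 2.8e-05 by permutation), 0.62 without P 5 and 0.18 to 0.78 within pairs. The unadjusted p of 1e-05 behind these is the smallest that the permutations can give. Leaving out the 2 arrays farthest from the median of the first gene left r at 0.54 and 0.61.

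Col1a2 moved with 2 markers of meningeal fibroblasts. With Dcn, a proteoglycan that coats collagen fibrils, it gave r = 0.65 and rho = 0.64 (both adjusted p = 2.8e-05 by permutation), 0.62 without P 5 and 0.21 to 0.85 within pairs. With Igf2 it gave r = 0.73 and rho = 0.53 (the same adjusted p by permutation), 0.57 without P 5 and 0.04 to 0.92 within pairs. Without the 2 farthest arrays, P 5 and AA 17, these were 0.61 and 0.61. With the choroid plexus marker Ttr r was 0.33 and rho 0.06 (adjusted p = 0.128 and 0.625 by permutation), and r was -0.10 without P 5. With the endothelial marker Cldn5, a tight junction protein, r was 0.00 and rho 0.10 (adjusted p = 0.978 and 0.423 by permutation).

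The start of Col1a2 is shown because the gene gave both a called difference and the co-variation above. The call was at 1387854_at, and the co-variation was read at the brighter 1370155_at, which was not called. The 250 bases before its RefSeq start (GRCr8, chr4:33518307-33518556, plus strand) are printed with 3 motifs in capitals wherever either strand holds them: the CCAAT box, the TATA box read as TATAAA and the GC box read as GGGCGG.
Col1a2: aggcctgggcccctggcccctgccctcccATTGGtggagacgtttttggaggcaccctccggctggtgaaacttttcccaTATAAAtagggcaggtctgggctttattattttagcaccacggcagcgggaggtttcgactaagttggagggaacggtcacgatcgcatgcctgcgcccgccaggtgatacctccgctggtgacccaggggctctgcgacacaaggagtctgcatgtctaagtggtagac
The window holds the CCAAT box on the minus strand, at -221 from the RefSeq start, and the TATA box on the plus strand, at -170. Over 33469 windows of this length before RefSeq starts, 34.02% held the CCAAT box, 12.9% the TATA box and 30.5% the GC box on either strand. Of the 44 member genes in that table, 12, 5 and 24 held them. These matches are descriptions of the letters.

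Col4a1 followed an endothelial marker, while its relation with its partner chain did not pass. With Cldn5 it gave r = 0.56 and rho = 0.50 (both adjusted p = 2.8e-05 by permutation), 0.51 without the 2 farthest arrays and 0.42 to 0.75 within pairs. With Pdgfrb, a pericyte receptor, r was 0.24 and rho 0.10 (adjusted p = 0.125 and 0.425 by permutation), and with Dcn 0.15 and 0.22 (adjusted p = 0.215 and 0.0629 by permutation). Col4a1 and Col4a2 correlated at r = 0.22 and rho = 0.22 (adjusted p = 0.125 and 0.0629 by permutation), from -0.08 to 0.47 within pairs. The 76 bases between both RefSeq starts (GRCr8, chr16:84885521-84885596, shown on the plus strand, toward Col4a1) are printed because both genes are read outward from them.
Col4a2 to Col4a1: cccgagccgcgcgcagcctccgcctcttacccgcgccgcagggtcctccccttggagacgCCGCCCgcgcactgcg
This interval holds the GC box on the minus strand and neither of the other motifs. Col1a2 and Col4a1 gave r = 0.20 and rho = 0.22 (adjusted p = 0.136 and 0.0629 by permutation). Neither Col1a2 (r = 0.04, adjusted p = 0.625 by permutation) nor Col4a1 (r = -0.14, adjusted p = 0.158 by permutation) passed against the GAPDH 3′ to 5′ ratio over all arrays. Within pairs Col1a2 ran from r = -0.56 in the AA pair (adjusted p = 0.0813 by permutation) to 0.59 in the HAD2 pair (adjusted p = 0.0490 by permutation), and Col4a1 from -0.41 to -0.02.

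Chains of 1 trimer did not always move together. Lamb1 and Lamc1, which meet in the common laminins, correlated at r = -0.36 and rho = -0.39 (adjusted p = 0.00103 and 0.000513 by permutation), negative in 5 of 5 pairs, from -0.69 to -0.03. Over all 1275 pairs of member genes the median r was 0.05, beside 0.02 over all gene pairs of the array, and pairs that stand out are given as a description with no test. Col9a1, Col9a2 and Col9a3 are the 3 chains of type IX collagen, and Col9a1 ran against the other two, with r = -0.52 with Col9a2 and -0.41 with Col9a3, negative in 5 of 5 pairs each. Col9a2 and Col9a3 gave 0.26, or 0.44 without P 5. Col9a1 and Lamb1 gave 0.62, from 0.46 to 0.94 within pairs, and Lamb1 gave -0.58 with Col9a2. Col2a1 and Col5a2 gave 0.67. Col8a1 and Col8a2, the 2 chains of type VIII, gave 0.63 with all arrays and 0.01 without P 5.

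Each member was then set against the mean of 10 lists of cell type markers, on the same arrays and by the same permutation test, adjusted over 510 relations. Apart from that of Col4a2, each relation named below without a p reached an adjusted p of 0.000159 for r by permutation. For rho the adjusted p was at most 0.000300 by permutation. With the leptomeningeal fibroblast list 10 of 51 members had r over 0.5, against 3.53% of other genes, and 6 without P 5, against 7.49%. Lama2 gave 0.85 (rho 0.64, 0.61 without P 5, 0.54 to 0.93 within pairs), Lama5 0.79 (rho 0.59, 0.54 without P 5), Col1a2 0.75 (rho 0.60, 0.58 without P 5) and Col3a1 0.68 (rho 0.67, 0.62 without P 5). Col9a3 gave 0.75 and Col1a1 0.68 (rho 0.65 and 0.46), or 0.63 and 0.41 without P 5. Without the 2 farthest arrays, P 4 and P 5, Lama2 was at 0.59, Lama5 at 0.53, Col1a2 at 0.57 and Col3a1 at 0.61.

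With the choroid plexus list 9 of 51 members had r over 0.5, against 2.65% of other genes, and 0 did without P 5, against 0.0633%. Col8a2 gave r = 0.89 and rho = 0.44 (adjusted p = 0.00142 and 0.00684 by permutation), and 0.37 without P 5. Lama3, an alpha chain of epithelia, gave 0.78 (rho 0.32, adjusted p = 0.0460 and 0.0710 by permutation) and 0.17 without P 5. The relations with choroid plexus markers over 0.5 rested on that array.

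With the endothelial list 4 of 51 members had r over 0.5, against 6.84% of other genes. These were Col16a1 at 0.58 (rho 0.57), a fibril-associated chain, Lamc1 at 0.52 (rho 0.53), Col5a3 at 0.51 (rho 0.49) and Col4a1 at 0.51 (rho 0.46). Within pairs Lamc1 ran from 0.28 to 0.68 and Col4a1 from 0.38 to 0.66. Col4a2, the partner chain of Col4a1, gave -0.12 with this list. 2 members lay under -0.5, against 3.80%, Lamb1 at -0.64 and Col9a1 at -0.59, both negative in 5 of 5 pairs. Without the 2 farthest arrays, P 4 and sNP 3, the 4 positive relations lay between 0.47 and 0.55. With pericyte and smooth muscle markers 0 members were over 0.5, against 3.57%, and 2 under -0.5, against 2.05%.

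Those 2 chains were the members closest to the neuron list. With the mean of the central amygdala neuron markers, which include Prkcd, Sst and Gad1, Col9a1 gave 0.78 (rho 0.74, 0.56 to 0.96 within pairs) and Lamb1 0.71 (rho 0.76, 0.50 to 0.94 within pairs). Without the farthest arrays, HAD2 6 and sP 7, they were 0.75 and 0.68. Col12a1 gave 0.50 (rho 0.43, adjusted p = 0.000283 and 0.000680 by permutation), with -0.18 to 0.69 within pairs. 3 of 51 members were over 0.5, against 5.84% of other genes, and 2 under -0.5, against 3.98%. In the pair where Col12a1 was called, the mean of the neuron markers ran from 9.64 to 10.59 in HAD2 and from 10.18 to 10.81 in LAD2.

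Col9a3 followed oligodendrocytes, the cells that make myelin. With their list it gave r = 0.77 (rho 0.85), 0.89 without P 5 and 0.69 to 0.98 within pairs, or 0.73 without the farthest arrays, P 9 and AA 3. With astrocyte markers it gave 0.52 (rho 0.66), the 1 member over 0.5 there, against 9.42% of other genes. Col16a1 gave 0.54 with the oligodendrocyte list. Lamb1 (-0.64), Col9a1 (-0.59) and Col19a1 (-0.58), a chain made by neurons, ran the other way. 2 members were over 0.5 with that list, against 10.3% of other genes, and 3 under -0.5, against 5.71%. The microglial list had 0 members over 0.5 or under -0.5, against 0.957% and 0.0282%. The striatal list also had 0, against 1.68% and 0.148%, as did the basolateral and cortical list, against 1.7% and 1.43%.

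**Figure D4:**
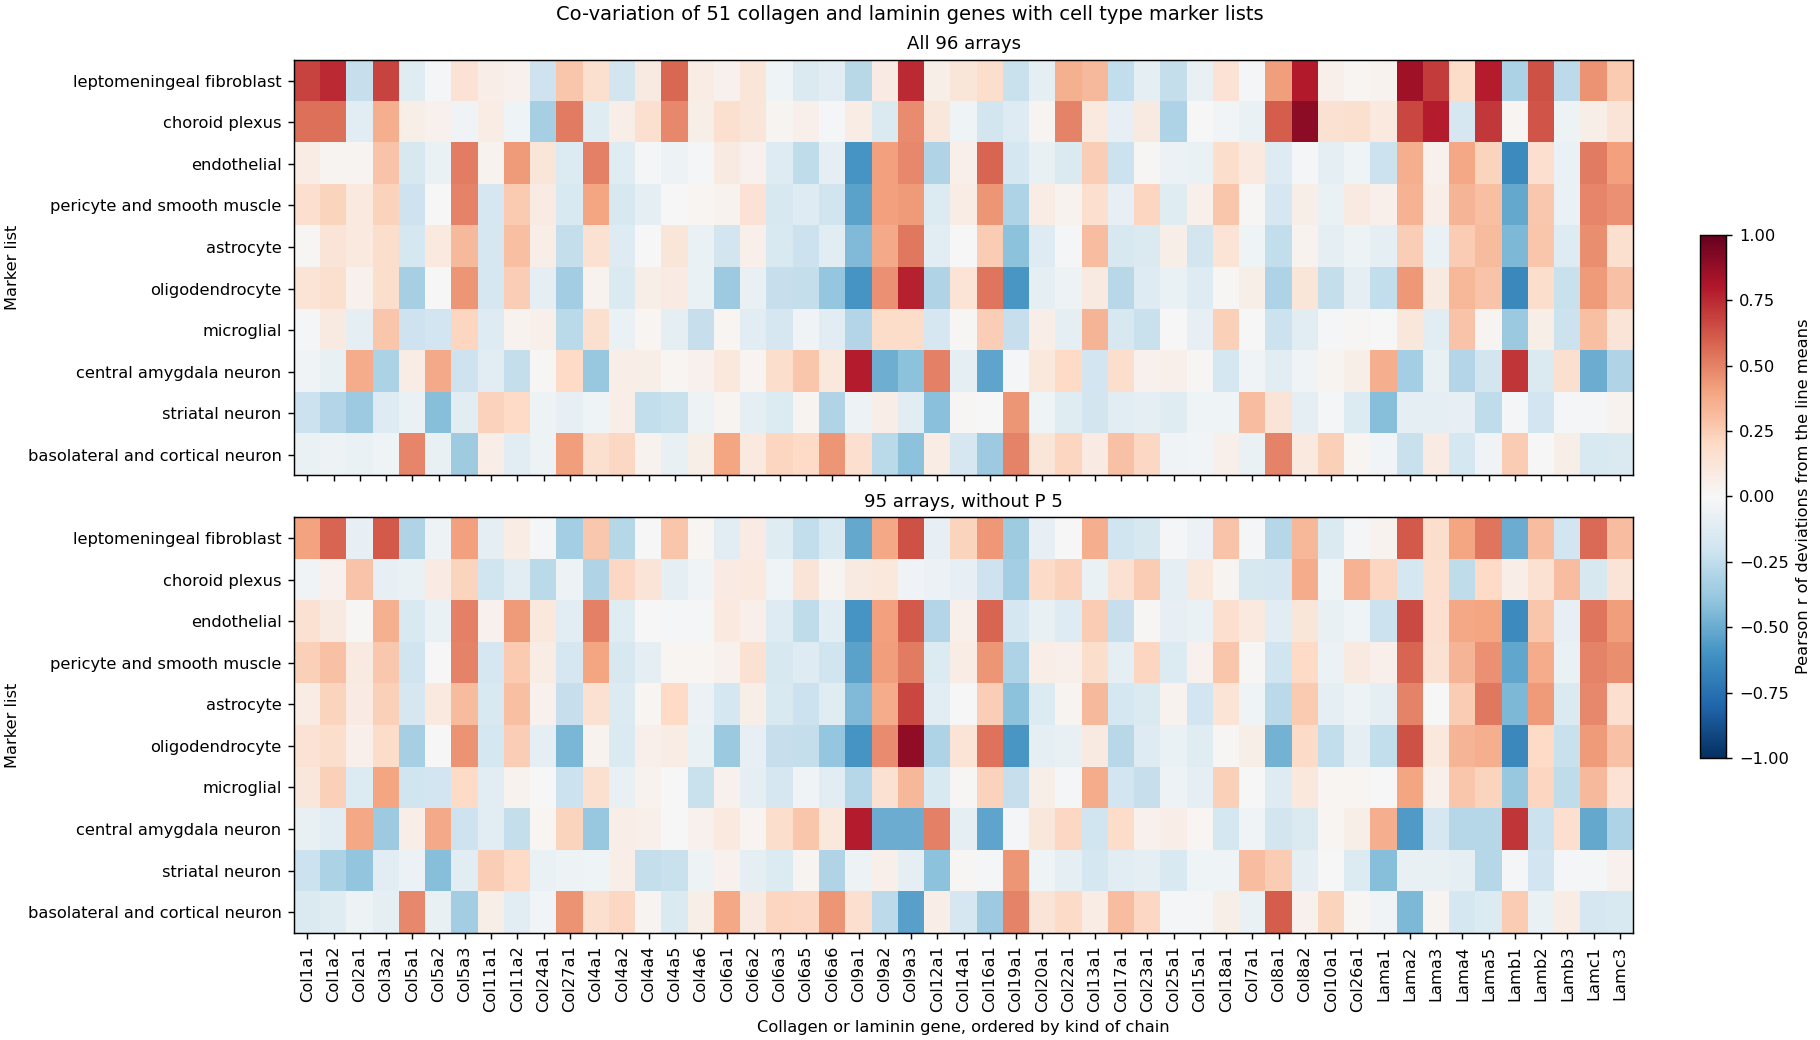
Pearson r between 51 collagen and laminin genes (columns, by kind of chain) and the mean of each of 10 marker lists (rows), over deviations from line means; the upper panel has 96 arrays and the lower omits P 5. The choroid plexus row, with 9 members over 0.5, has 0 in the lower panel, while Col9a1 and Lamb1 keep their red cells for central amygdala neurons and blue cells for endothelial and oligodendrocyte markers.

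**Figure D5:**
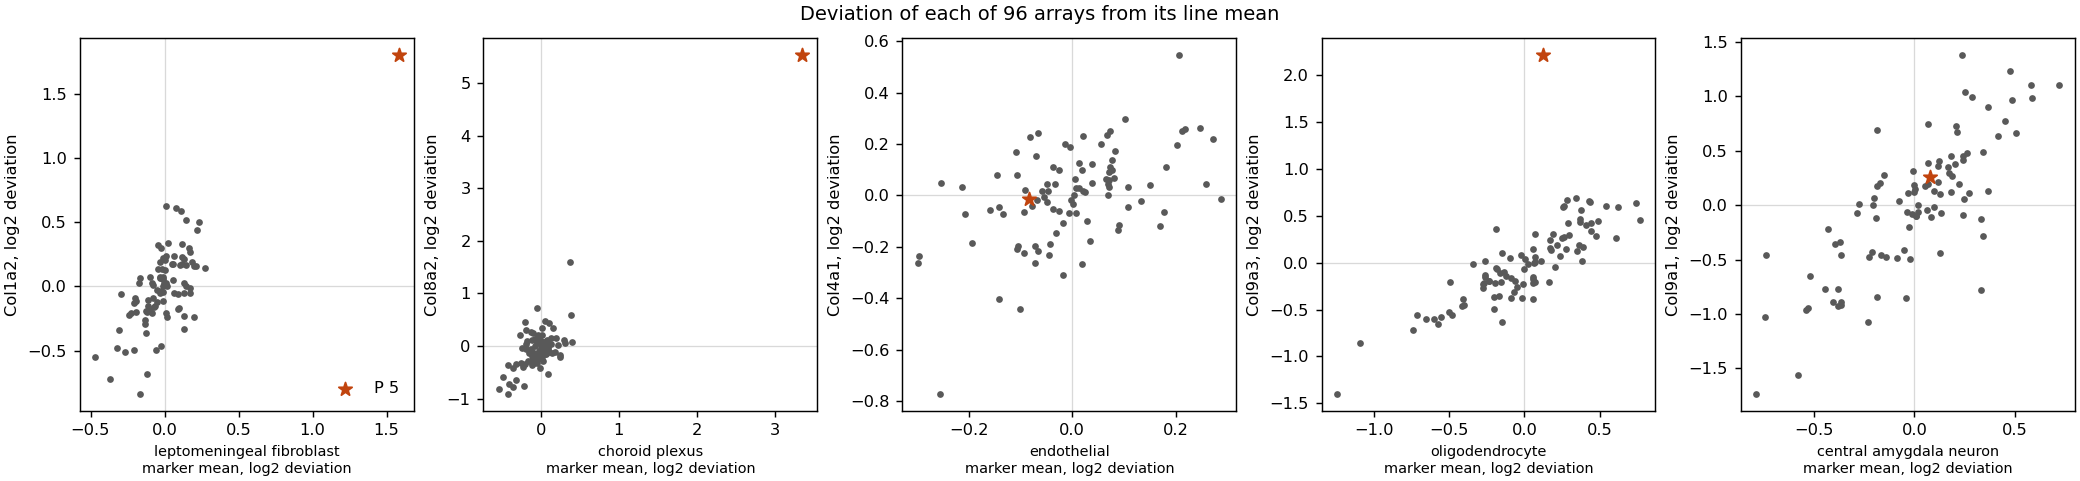
Deviation of each of 96 arrays from its line mean on the log2 scale for 5 member genes (vertical) against 5 marker list means (horizontal); the star is P 5. Col8a2 against choroid plexus rests on the star (r = 0.89, or 0.37 without it), while Col9a1 against central amygdala neurons (r = 0.78) and Col4a1 against endothelial markers (r = 0.51) do not.

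The genes outside the family most alike the mean of Col1a1, Col1a2 and Col3a1 over the 96 arrays were Pcolce (r = 0.77, or 0.64 without P 5), which aids the trimming of procollagen, Igf2 (0.76, or 0.61), and Ogn (0.68, or 0.53), a small proteoglycan. All 3 are also in the leptomeningeal list. The next were Ctsc, Dab2, Lrat, Sned1, Slc16a12, Cntn1 and Sfrp1, at 0.64 to 0.68. The closest member outside that trio was Col4a5 at 0.67, or 0.50 without P 5. For the mean of Col4a1 and Col4a2 the closest were Clasrp at 0.65, Dmpk at 0.56 and Kmt5c at 0.54, then Mau2, Shank1, Ubr4, Tpcn1, Pde4a, Clcn2 and Pygm at 0.51 to 0.54. These likenesses are descriptions chosen from 14217 genes and carry no test.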

How the data were processed

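The deposited log2 values come from RMA (background correction, normalization between arrays, 1 summary per probe set), per the submitters' processing notes, which name no version. Per the labels, biotin-labelled cRNA was made from 25 ng of total RNA. The table had 0 value columns of no sample. The 57 AFFX controls were left out. 20826 probe sets carried 1 symbol, 436 several and 9780 none; all 72 members matched RefSeq (GRCr8), which also gave the promoter sequences. A gene is represented by its brightest 1-symbol probe set.

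Separate fits for the pairs used limma 3.58.1 in R 4.3.3 (moderated variances, intensity trend), two-sided; a call is a Benjamini-Hochberg adjusted p under 0.05, taken across the 31042 probe sets, and 1 fit of all 10 lines gave the mean of the 5 differences and their variation. The fit was tested on simulated data. Correlations used 100000 permutations within lines (Python 3.11.15); the tests against marker lists, the 0.5 limit and the fits without P 5 were added after values were seen. The members, lists and tests were chosen with earlier results of these data known. Always named are 10 main chains, then each called member, or the 2 of smallest p in a pair with none, at most 2 list genes per direction, and the 10 genes most alike each core. The number of arrays limits the precision.

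A doubted array scored nearer the partner line than its own over the 100 probe sets that best separate the lines, members left out, both on odd and on even chromosomes. Alternatives were fits without trend, with array weights, of all lines together, on the brighter 50%, with 1 probe set per gene, median-centred, with the GAPDH ratio, with and without LAD1 36, sP 2 and sNP 2, without doubted arrays and without each array. P and NP, and sP and sNP, share replicate numbers, but same-numbered arrays deviated together (r over 0.1) in 5 of 10 and 3 of 8 cases, so the numbers were not used to pair them.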

Additional observations from a re-analysis of the deposited data

Results flagged for a closer look

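The values below lay apart from the rest of their line by Dixon's test, which by chance marks about 1 in 20 groups; 24 of 170 groups of 17 probe sets were marked, 7 of them through P 5. In P 5 these were Col1a1 at 8.62 (median of the other P arrays 7.22), Col1a2 at 9.70 and, at its other probe set, 8.91, Col22a1 at 6.98, Lama2 at 11.40, Lama3 at 8.35 and Lamb2 at 10.10. The doubted arrays held 6: Col1a1 at 7.65 in sP 9, Col22a1 at 5.97 and Lama4 at 8.13 in AA 19, Col5a1 at 8.11 in P 9, Lama3 at 6.24 in sNP 9 and Lama4 at 8.16 in ANA 18. ANA 6 was low for Col4a1 at 6.78 and for Col5a1 at 7.19. The others were Col12a1 at 8.12 in ANA 20, Col1a1 at 7.69 in HAD1 22, Col1a2 (1387854_at) at 7.63 in sNP 4, Col4a1 at 7.9 in HAD2 4, Col4a2 at 8.9 in HAD1 30, Lama2 at 7.41 in sP 4, Lama3 at 6.78 in HAD2 7 and 6.61 in ANA 10, and Lama4 at 8.08 in LAD1 39.

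The Col12a1 difference at 1370927_at varied among pairs by the F test, with a range of 0.94 from sP minus sNP to HAD2 minus LAD2.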

How the results depend on the processing

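Col12a1 in the HAD2 pair passed in all 6 alternatives that tested its probe set, with adjusted p from 1.95e-07 to 1.11e-06. Members called for HAD1 minus LAD1, 1 in the fit reported, were 0 without the trend, on the brighter 50%, with 1 probe set per gene, with the GAPDH ratio, and with LAD1 36 as HAD1 or left out, 2 with array weights and with all lines in 1 fit, 3 without the doubted arrays (also without LAD1 36, added after seeing the data), and 0 to 2 without 1 array each. The 2 of the all-line fit were Col14a1 and Col11a2, not Col1a2 (adjusted p = 0.177). The fits on the brighter 50% and with 1 probe set per gene leave out 1387854_at, so they cannot test the Col1a2 call. For HAD2 minus LAD2 the count was 2 without trend, on the brighter 50% and centred, 3 with the GAPDH ratio, 4 with array weights, and 1 to 4 without 1 array each. Col9a3 passed without HAD2 7, HAD2 10, LAD2 11 or LAD2 20, Lama4 without HAD2 9 or LAD2 11, and Col11a1 without HAD2 10. For the mean of 5 pairs it was 3 with array weights and 4 without the doubted arrays. For variation among pairs it was 6 with array weights, 2 without the doubted arrays and 0 on the brighter 50%, which leaves Col12a1 untested. For the P, AA and sP pairs it was 0 throughout. The cause of these shifts was not tested. With the replicate number as a block, the P and sP pairs gave 0 members called, as without the pairing. Among correlations, Col1a2 with Col4a1 passed without P 5 (r = 0.25, unadjusted permutation p = 0.0276) and Col4a1 with Dcn without the 2 farthest arrays (r = 0.26, unadjusted permutation p = 0.0174). The other correlations kept their side of the threshold.

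Signal limits what can be seen: 20 of 72 members lay above the median of all probe set means, and the fit on the brighter 50% tests only these.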
